A study of Sus scrofa domesticus with 4 samples.

Results

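The genes described here encode 3 subunits of the AMP-activated protein kinase (AMPK), namely PRKAA2, PRKAB1 and PRKAB2, and 3 regulators of peroxisome proliferator-activated receptor (PPAR) transcription, namely PPARD, PPARG and PPARGC1A. They were chosen by name, with earlier results of these data known, and the rule that picks their probes uses no measured values. All probes whose RefSeq accession belongs to one of the 6 genes were taken, which gave 10 probes for 6 of the 3029 genes that could be named on the array. The probes were 1 for PRKAA2 (NM_214266), 2 for PRKAB1 (NM_001243621), 1 for PRKAB2 (NM_001243683), 2 for PPARD (NM_214152), 3 for PPARG (NM_214379) and 1 for PPARGC1A (NM_213963). Probes of a gene are numbered from the brightest down.

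The tissue was pig myometrium, the muscular wall of the uterus, from 4 mature gilts (Large White x Polish Landrace, 7 to 8 months old) that were 15 to 16 days pregnant. Slices of it were cultured, and after a shared preincubation of 2 h the treated group received 10 µg/ml adiponectin for 24 h while the control group received nothing. Each of 4 Agilent 2-colour arrays held 1 RNA of each group, with the treated RNA labelled with Cy5 on arrays 1 and 3 and with Cy3 on the other two. The labels do not say which gilt is on which array, or whether an array pairs RNAs of a single animal, and each culture was made in duplicate. The p-values therefore describe how far the 4 arrays spread, which may be technical in part.

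AMPK is a heterotrimer that responds to a low energy state of the cell. An alpha subunit carries the kinase domain, a beta subunit holds the complex together and binds glycogen, and a gamma subunit senses adenine nucleotides. Adiponectin, a hormone of fat tissue, is known to act through ADIPOR1 on AMPK and through ADIPOR2 on PPAR signalling in liver and muscle. PPARs are nuclear receptors that bind DNA together with a retinoid X receptor and switch on genes of lipid handling, and PGC-1alpha, the product of PPARGC1A, is a coactivator of these and other receptors that drives mitochondrial gene expression. The activity of AMPK depends largely on phosphorylation, which RNA levels do not measure.

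The study asked how adiponectin affects gene expression in early pregnant myometrium, and for these genes the comparison is the ratio of treated to untreated signal on each array. Of the spots on an array, 46.1% to 51.0% were well above background in Cy3 and 54.9% to 63.1% in Cy5. The number of arrays limits the precision. Of the 10 probes, 9 were bright enough to be tested, and they covered all 6 genes. Among the markers of smooth muscle, 5 of 10 had named probes, and ACTA2, DES, CNN1, SMTN and MYLK were each well above background on all 4 arrays in both conditions. Markers of endothelium, endometrial epithelium and macrophages were also well above background. In such bulk tissue, fewer cells of a type and less RNA per cell cannot be told apart.

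No tested probe of the 6 genes differed between the groups after adjustment. PRKAB2, the beta-2 subunit of AMPK, was the 1 gene whose ratio lay above 0 on all 4 arrays, with a fitted log2 change of 0.42 ± 0.16 (SE, n = 4 arrays). The other 8 probes lay between -0.26 and 0.14, and each of their 95% intervals included 0. Over the whole array, limma called 0 of 22129 probes at an adjusted p under 0.05 (0% called), and the lowest adjusted p was 0.856. Without adjustment, 1263 probes had a p under 0.05, which is 5.71% of those tested, with 838 higher and 425 lower. PRKAB2 was the 1 of the 9 member probes among them. Leaving out array 3 gave 12 called probes, 0 of them a member probe. Of the 9 probes, 5 lay above 0 and 4 below, with a median of 0.02, and over all tested probes the median was -0.0023 with 49.5% above 0.

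**Figure D1:**
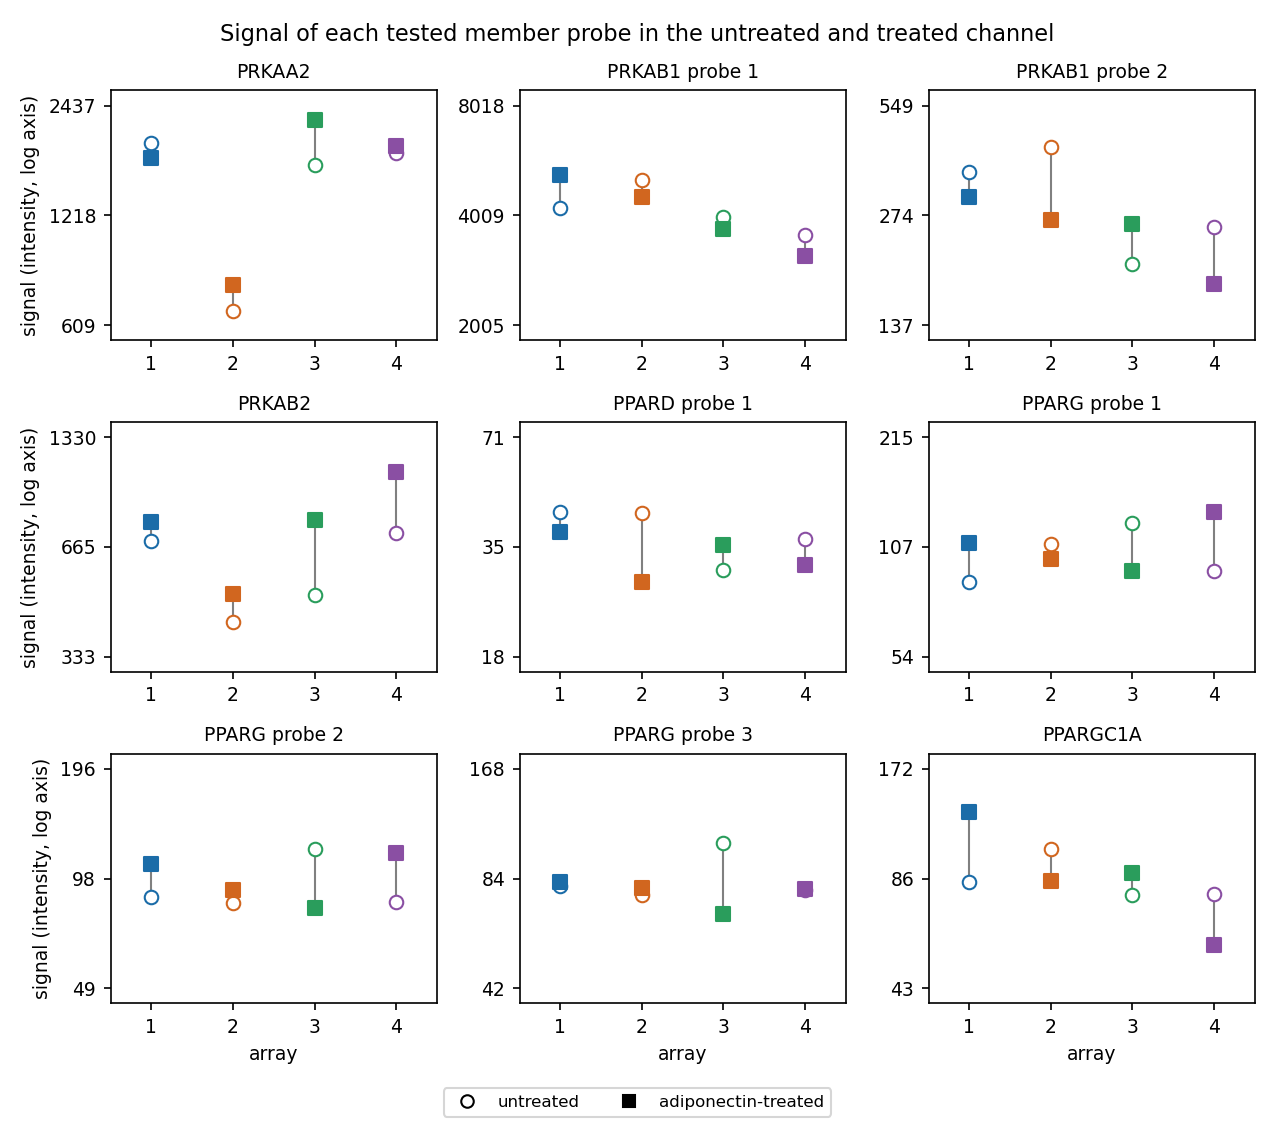
Signal of the 9 tested probes (vertical axis, dye-normalised intensity on a log axis of the same span in every panel) on arrays 1 to 4 (horizontal axis), with open circles for untreated and filled squares for adiponectin-treated RNA. PRKAA2 was lowest in both channels of array 2, and PRKAB2 is the panel in which the treated square is above the untreated circle on every array.

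The untreated signals of PRKAB2 were 692, 415, 490 and 727 on arrays 1 to 4, and the treated signals were 777, 495, 790 and 1066. The treated signal was above its untreated partner on every array, while the 2 groups overlapped across arrays. The log2 ratios were 0.17, 0.26, 0.69 and 0.55, higher on arrays 3 and 4 than on arrays 1 and 2. The fitted change corresponds to a fold of 1.33 with a 95% interval from 1.02 to 1.75. Its limma p was 0.0398 before adjustment, and its adjusted p was 0.856. A share of 12.6% of all tested probes likewise had the same sign on all 4 arrays. The size of the PRKAB2 change exceeded that of 92.7% of the tested probes. The change was 0.29 without array 3 and 0.55 without array 1, and it stayed above 0 in every other alternative tried.

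PRKAA2 encodes the alpha-2 catalytic subunit, the isoform typical of skeletal and heart muscle. Its untreated signals were 1919, 668, 1678 and 1805 on arrays 1 to 4, and its treated signals were 1755, 786, 2223 and 1886. Array 2 was low in both channels, and the treated and untreated values overlapped over the other 3 arrays. The log2 ratios were -0.13, 0.24, 0.41 and 0.06, above 0 on 3 of 4 arrays. The fitted change was 0.14 ± 0.15 with a 95% interval from -0.24 to 0.52 (limma adjusted p = 0.907), and it was 0.01 without array 3.

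The differences between arrays were larger for PRKAA2 than the difference between treatments. With each channel scaled to its 75th percentile signal, the mean level of both channels lay 0.77 below the gene's own average on array 2 and between 0.07 and 0.38 above it on the other arrays, a range of 2.21-fold. Over all tested probes the median range of this mean was 1.73-fold, and 75.4% of them had an SD between arrays no larger than that of PRKAA2. In the untreated channel alone the range was 1.24 on the log2 scale, 1.37 with background-subtracted signals and 1.09 with the median of the bright probes as the scale. Each array holds both dyes, so a dye offset of the probe cancels in the mean of the channels.

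PRKAB1 encodes the beta-1 subunit, a close relative of PRKAB2. The untreated signals of its brighter probe were 4199, 5005, 3956 and 3545 on arrays 1 to 4, and the treated signals were 5172, 4490, 3685 and 3108. The groups overlapped, and the treated signal was the higher one on array 1 and the lower one on the other arrays. The log2 ratios of 0.30, -0.16, -0.10 and -0.19 gave a fitted change of -0.04 ± 0.14 (adjusted p = 0.973). The interval allowed folds from 0.763 to 1.24.

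The dimmer PRKAB1 probe gave log2 ratios of -0.22, -0.66, 0.37 and -0.51, from untreated signals of 360, 422, 202 and 254 and treated signals of 309, 267, 260 and 178. Its fitted change was -0.26 ± 0.16 (adjusted p = 0.864), the lowest value among the tested probes of the 6 genes. The 2 probes had opposite signs on arrays 1 and 3 and the same sign on arrays 2 and 4. Probes of a gene share the same RNA and are not replicates, so this is a disagreement between measurements of the same transcript pool. Without array 3 the brighter probe stood at 0.06, and the dimmer probe stayed below 0 in every omission, between -0.40 and -0.11.

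PPARG encodes PPARgamma, the receptor that drives fat cell differentiation and is also present in macrophages. The brightest of its 3 probes had untreated signals of 85.8, 109, 125 and 92.2 and treated signals of 110, 99.7, 92.3 and 134 on arrays 1 to 4. The treated signal was higher on arrays 1 and 4 and lower on arrays 2 and 3, so the groups overlapped. Its log2 ratios were 0.36, -0.13, -0.44 and 0.54. The second probe gave 0.30, 0.12, -0.53 and 0.45, and the third gave 0.04, 0.06, -0.65 and 0.01.

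All 3 PPARG probes were thus lowest on array 3, at -0.65 to -0.44, while on arrays 1 and 4 all were above 0. The fitted changes were 0.08 ± 0.20, 0.08 ± 0.19 and -0.13 ± 0.16, with adjusted p of 0.961, 0.955 and 0.919. Their 95% intervals on the log2 scale ran from -0.42 to 0.58, from -0.37 to 0.54 and from -0.54 to 0.27. Without array 3 the 3 probes stood at 0.28, 0.29 and 0.04, and without array 1 at -0.12, -0.12 and -0.30. Without array 4, which leaves the 3 arrays of slide 1, the first probe stood at -0.09.

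PPARD encodes PPARdelta, a widely expressed receptor that favours fatty acid oxidation. Only the brighter of its 2 probes was tested, and its signals were low, at 44.1, 43.8, 30.6 and 37.2 untreated and 38.9, 28.4, 35.7 and 31.5 treated. It was well above background on 3 arrays in the untreated and on 2 in the treated channel, so it passed the brightness filter through the untreated group alone. Its brightness followed the dye, with 4 arrays in Cy5 against 1 in Cy3. The groups overlapped. The log2 ratios were -0.18, -0.63, 0.22 and -0.24, below 0 on 3 arrays, and the fitted change was -0.21 ± 0.15 (adjusted p = 0.878). As PPARD passed the filter through the group in which it was higher, its change is no support for a difference. The same holds for its place among the probes below 0. The change was -0.04 after normexp background correction and loess, and between -0.31 and -0.10 when an array was left out. The other probe was not well above background in either channel of any array, with untreated signals between 6.20 and 16.5, so no fold is given.

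PPARGC1A, the gene of PGC-1alpha, had untreated signals of 84.3, 104, 77.8 and 78.2 and treated signals of 131, 84.7, 89.2 and 56.7. The groups overlapped. Its log2 ratios were 0.63, -0.29, 0.20 and -0.46, the widest range among the 9 tested probes, and they averaged 0.42 on the arrays with treated RNA in Cy5 and -0.38 on those with treated RNA in Cy3. The fitted treatment change was 0.02 ± 0.15, with a 95% interval of 0.787-fold to 1.30-fold (adjusted p = 0.987).

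**Figure D2:**
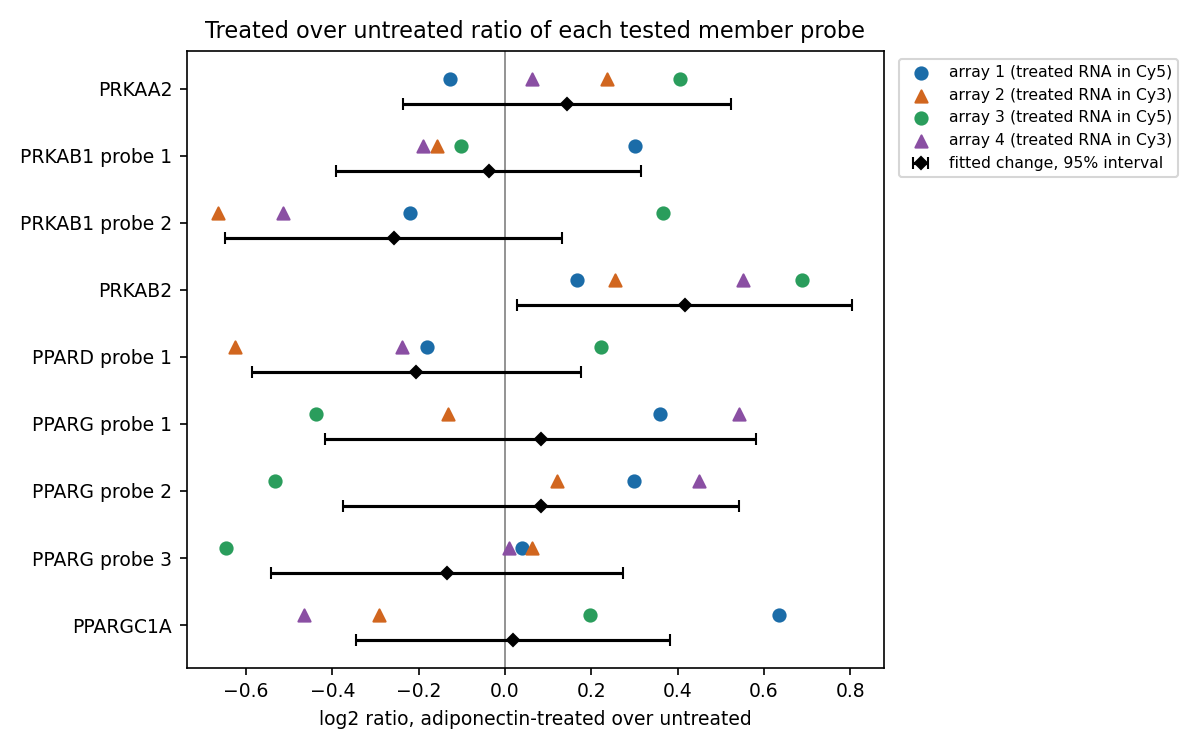
Log2 ratio of adiponectin-treated over untreated signal (horizontal axis) for each tested probe, with 1 coloured point per array, circles where treated RNA was in Cy5 and triangles where it was in Cy3, and the fitted change with its 95% interval as a black diamond. PRKAB2 is the 1 probe with all 4 points to the right of 0, and the array 3 point is the lowest for each of the 3 PPARG probes.

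The dye orientation separated the arrays for several of these probes. Signal was higher in Cy5 than in Cy3 on all 4 arrays for PPARGC1A, whichever RNA it carried, with log2 ratios of Cy5 over Cy3 of 0.63, 0.29, 0.20 and 0.46. The fit gave it a dye offset of 0.40 ± 0.15, which did not pass over all probes (unadjusted p = 0.0373, adjusted p = 0.586, limma). The dimmer PRKAB1 probe had a dye offset of 0.33 ± 0.16 and PPARD 0.23 ± 0.15. In contrast, PRKAB2 averaged 0.43 and 0.40 in the 2 orientations and PRKAA2 0.14 and 0.15. The smallest adjusted p of a dye offset over all probes was 0.515.

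**Figure D3:**
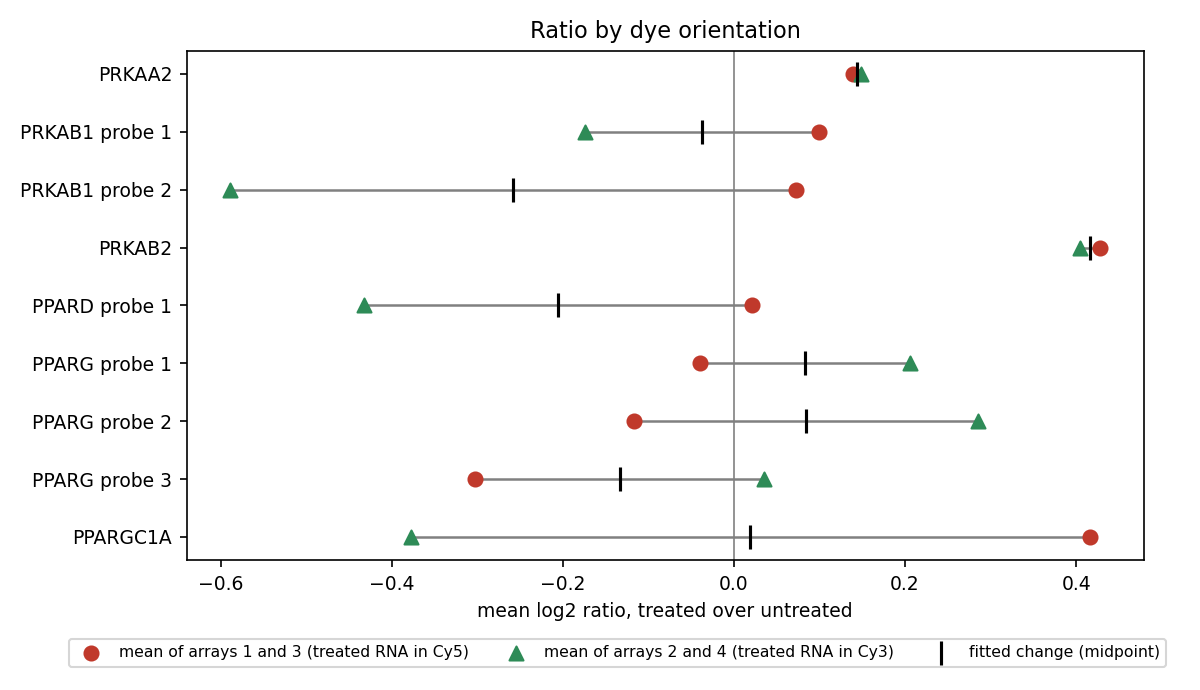
Mean log2 ratio of treated over untreated (horizontal axis) on the arrays with treated RNA in Cy5 (red circles, arrays 1 and 3) and in Cy3 (green triangles, arrays 2 and 4), with the fitted change at their midpoint (black bar). The 2 means nearly coincide for PRKAB2 and PRKAA2 and lie farthest apart for PPARGC1A, at 0.42 and -0.38.

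Some cell type marker lists had wider ranges between arrays than any tested member probe, of which the widest was 1.10 for PPARGC1A. The median log2 ratio of the 5 tested smooth muscle markers was -0.66, -0.10, 0.95 and -0.25 on arrays 1 to 4, and that of the 5 tested macrophage and monocyte markers was 0.55, -0.18, 2.22 and 0.63. Array 3, on which all PPARG probes were lowest and PRKAA2 and PRKAB2 highest, was also the highest for both of these lists. The median of the 5 tested endometrial epithelium markers was -0.71, 1.24, -0.95 and 0.69. It followed the dye orientation, below 0 with treated RNA in Cy5 and above 0 with treated RNA in Cy3. KRT8 on array 1 and CLDN3 on array 4 departed from this, at 0.48 and -1.79. Whether the pattern came from the dye or from the tissue in each RNA was not tested. The part of these cell types in the ratios of the 6 genes was not tested.

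Adipocyte markers are of interest beside PPARG. All 7 were on the array, and 4 were tested, with a median log2 ratio of 0.02, -0.50, -0.19 and -0.11 on arrays 1 to 4. PLIN1 and CIDEC, which coat lipid droplets of fat cells, were not well above background on any array in either condition, and ADIPOQ was so on at most 1 array in each. LEP, CIDEA, LIPE and PNPLA2, the 4 tested markers, were well above background on all 4 arrays in both conditions. Summed over the 4 tested markers, the level in units of the channel's 75th percentile signal was 2.33 to 3.13 in untreated and 2.00 to 2.60 in treated RNA. For the 5 macrophage markers, CD163, VSIG4, CD14, MRC1 and CD86, the sum was 2.19 to 4.01 in untreated and 2.66 to 7.66 in treated RNA, and none of them was dim throughout. These sums compare the groups within a list and not one list with another. The untreated and treated sums were 458 to 1160 and 499 to 1050 for smooth muscle, 18.1 to 33.8 and 18.3 to 29.4 for endothelium, and 1.07 to 9.10 and 0.823 to 21.1 for endometrial epithelium. For 3 tested skeletal muscle markers they were 143 to 478 and 125 to 387. Of the 7 skeletal muscle markers on the array, ACTA1 and CKM were well above background on 4 arrays in each condition and TNNI2 on 3. MYH1 was so on 2 treated and 1 untreated arrays, and MYH2, MYH7 and TNNT3 on at most 1 in each.

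**Figure D4:**
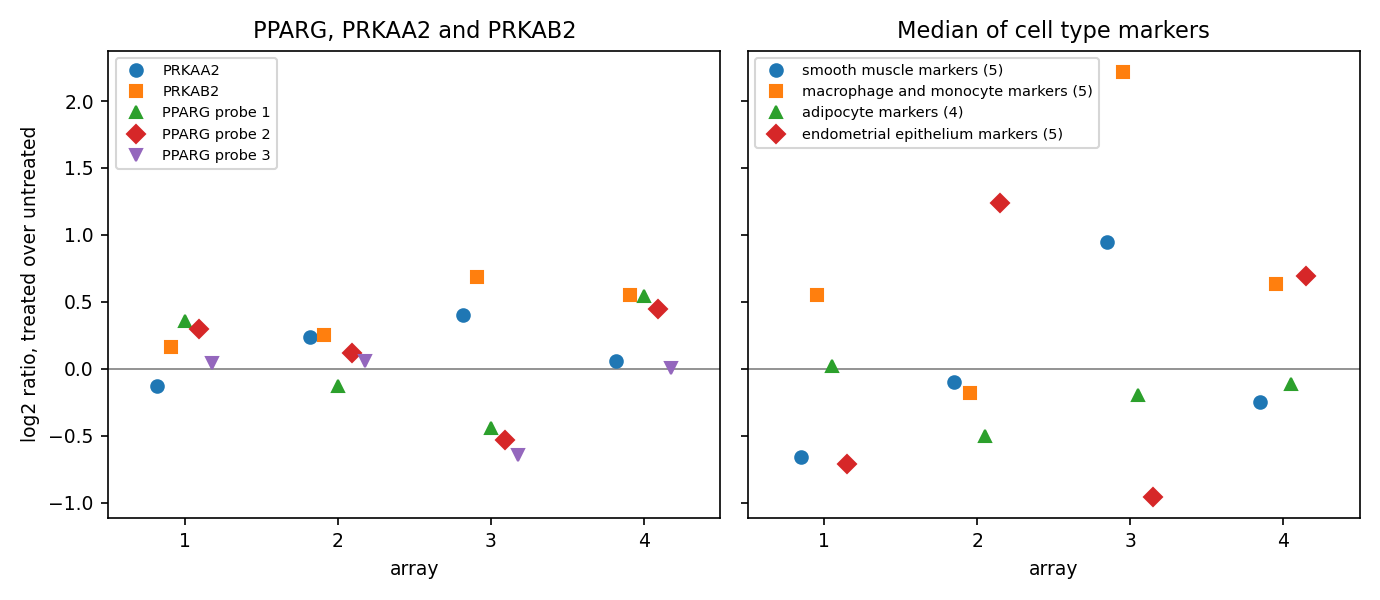
Log2 ratio of treated over untreated (vertical axis) on each array (horizontal axis) for PRKAA2, PRKAB2 and the 3 PPARG probes (left) and for the median of 4 cell type marker lists (right, number of tested markers in brackets). On array 3 the PPARG probes are at their lowest and the smooth muscle and macrophage medians at their highest, 0.95 and 2.22. The endometrial epithelium median follows the dye orientation, below 0 on the arrays with treated RNA in Cy5.

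Genes around AMPK and the PPARs were counted from lists of 163 genes, of which 83 were named on the array and 67 were tested by their brightest probe. None passed over all probes, 25 lay above 0 and 42 below, and their median was -0.06, against -0.02 and 45.6% above 0 for all named genes. Without adjustment 4 genes had a p under 0.05, 5.97% of those tested, beside 5.71% of all probes. The members and these genes were selected by function, and the counts are a description of them.

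Of the other AMPK subunits, 1 was tested, PRKAG1, the gamma-1 subunit, at -0.10 ± 0.16 (adjusted p = 0.938). It stood at 0.06 without array 1. Among upstream regulators of AMPK, 1 of 6 tested genes lay above 0 and 5 below, with a median of -0.13, which was -0.06 without array 3 and -0.20 without array 2. They included NAMPT, an enzyme of NAD synthesis, at -0.21 ± 0.14 (adjusted p = 0.867) and PPP2R5A, a regulatory subunit of protein phosphatase 2A, at -0.32 ± 0.23 (0.870). PPP2R5A was at -1.12 on array 3 and stood at 0.0065 without it.

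Among AMPK substrates and effectors, 3 of 11 tested genes lay above 0 and 8 below, with a median of -0.02. TXNIP, which AMPK marks for degradation as a protein and which is also on the PPAR target list, stood at 0.42 ± 0.20, with -0.29 on array 1 and 0.55 to 0.73 on the others, and GYS1, muscle glycogen synthase, stood at -0.36 ± 0.20 (both adjusted p = 0.856). TXNIP stood at 0.17 without array 3 and at 0.67 without array 1. GYS1 was -1.16 on array 1 and stood at -0.11 without it, at -0.61 without array 3, and at -0.06 after normexp and loess. ACACB, the acetyl-CoA carboxylase that AMPK inhibits in muscle, stood at -0.01, and is named here for its textbook role, after its value was seen.

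Of the partners of PPARs, 5 of 9 tested genes lay above 0 and 4 below, with a median of 0.0043. NCOA3, a nuclear receptor coactivator, stood at 0.28 ± 0.22 and HDAC3, the deacetylase of the NCoR corepressor complex, at -0.13 ± 0.15 (adjusted p = 0.887 and 0.910). NCOA3 rested on array 1, at 1.08, and stood at -0.02 without it.

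Genes known as PPAR targets formed the largest of these lists, with 28 tested of 37 on the array, 9 above 0, 19 below and a median of -0.12, which was -0.04 without array 3. None passed over all probes. CPT1A, the carnitine palmitoyltransferase of the outer mitochondrial membrane and a known PPAR target, stood at 0.61 ± 0.16 and was above 0 on all 4 arrays, at 0.74, 0.38, 0.40 and 0.93. A dimmer CPT1A probe stood at 0.28. CPT2, its partner on the inner membrane, stood at -0.85 ± 0.23, with -0.91, -1.19, 0.28 and -1.57. CPT2 was dim, well above background on 2 arrays in the treated and 3 in the untreated channel, so it passed the brightness filter through the untreated group alone, in which it was higher. Its change and its place among the 4 genes are therefore no support for a difference. It stood at -0.14 after normexp and loess. Both had an adjusted p of 0.856. The other 2 genes at an unadjusted p under 0.05 were named after their values were seen. They were FABP5, a fatty acid carrier, at 0.66 and ECH1, an enzyme of unsaturated fatty acid oxidation, at -0.44. On arrays 1 to 4 FABP5 stood at 0.63, -0.15, 1.64 and 0.51, so it was highest on array 3. ECH1 stood at -0.34, -0.49, -0.19 and -0.76.

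Of the PGC-1alpha partners and genes of mitochondrial biogenesis, 5 of 8 tested genes lay above 0 and 3 below, with a median of 0.07. TFAM, the activator of mitochondrial DNA transcription, stood at 0.34 ± 0.15 and MEF2C, a muscle transcription factor that PGC-1alpha coactivates, at -0.28 ± 0.14 (both adjusted p = 0.856). MEF2C stood at -0.06 after normexp and loess. In the adiponectin receptors and adaptors, 3 of 5 tested genes lay above 0, with ADIPOR1 at -0.37 ± 0.18 and ADIPOR2 at 0.25 ± 0.19 (adjusted p = 0.856 and 0.878). ADIPOR2 stood at 0.05 after normexp and loess, at 0.04 without array 4, at 0.16 without array 3 and at 0.46 without array 2. ADIPOR1 stood at -0.18 without array 2 and at -0.56 without array 4.

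**Figure D5:**
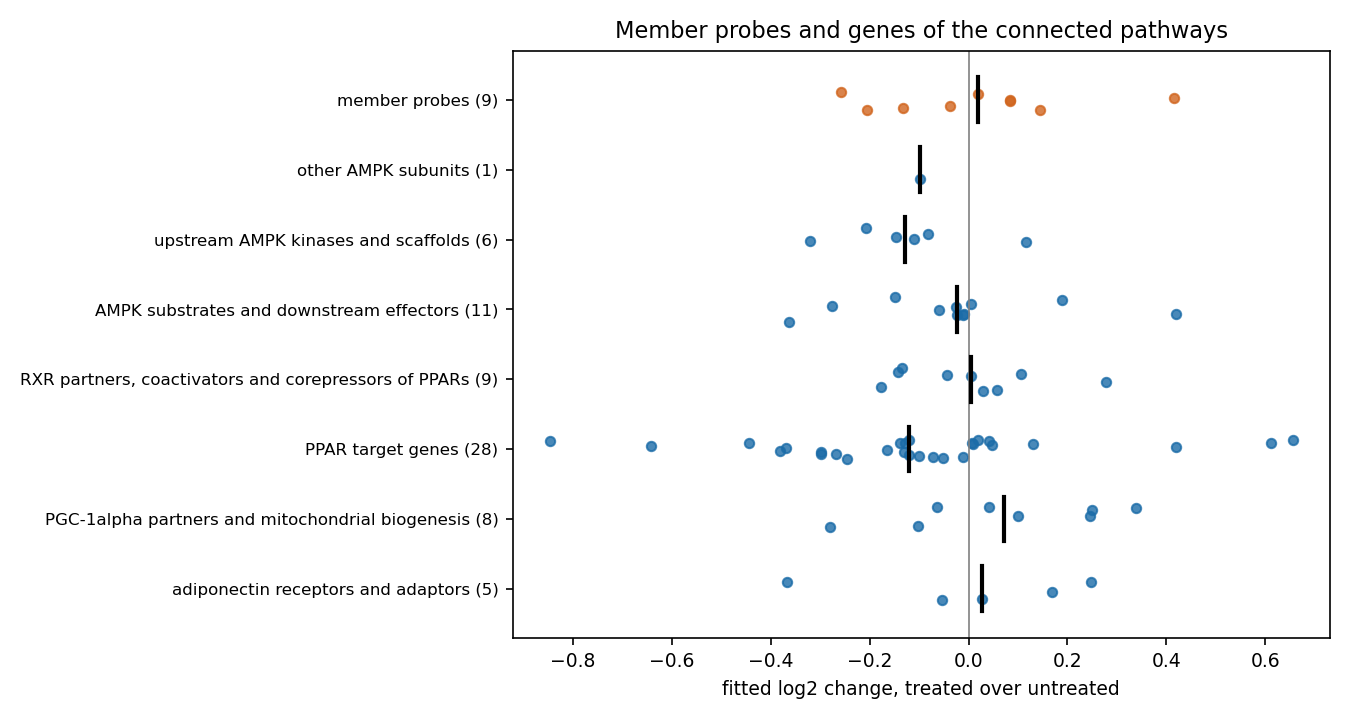
Fitted log2 change of treated over untreated (horizontal axis) for the 9 member probes (orange) and for the genes of the connected lists (blue, number tested in brackets), with the median of each row as a black bar. PRKAB2 is the member farthest to the right at 0.42, and the PPAR target genes span -0.85 to 0.66 around a median of -0.12.

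The genes with the most similar array profile were taken from the other 2133 named and tested genes by the root mean square difference of the 4 log2 ratios. ACTN1 and DRAM2 were nearest to PRKAB2, with differences of 0.09 and 0.12. DHRS7 and GRB10 were nearest to PRKAA2 (0.07 for both) and FKBP10 and B2M to PRKAB1 (0.04 and 0.05). RAB35 and MSTO1 were nearest to PPARD (0.05 and 0.06), MAN1A1 and SSH1 to PPARG (0.14 for both) and TMEM33 and CPE to PPARGC1A (0.05 and 0.08). These likenesses describe the same 4 arrays and carry no test.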

How the data were processed

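Each deposited scanner file holds 1 array as spot and background intensity per channel and a log10 ratio of Cy5 over Cy3 signals, background-subtracted and dye-normalised with Agilent Feature Extraction 10.7.3.1, per the file headers. The ratio was exactly 0 for 18.1% to 28.9% of spots. The deposited series table holds log2 values, whose scale and direction were settled here as treated over untreated: against the scanner ratios of 18167 bright probes its slopes were 1 and -1 by dye orientation, with column medians of -0.10, 0.13, -0.14 and 0.16. How it treats dim probes stays unknown.

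The log10 ratios were divided by log10 of 2 and turned to treated over untreated by the dye fields of the labels; the labelling protocol names only treated RNA in Cy5. Control spots and outlier spots were left out and repeated spots averaged. Of 43603 probes, 22129 were tested: those with a value on all 4 arrays that the scanner marked as well above background on 3 or more of them in 1 condition. Treatment and dye coefficients were fitted with limma 3.58.1 (R 4.3.3; lmFit, eBayes, two-sided), adjusted by Benjamini-Hochberg over all tested probes, threshold 0.05. Values after ± are moderated SEs. The fit was tested on simulated data. Levels are log2 signals minus the channel's 75th percentile and are compared only within a probe or, summed over a marker list, within that list.

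Symbols came from a RefSeq table of Sscrofa11.1 by unversioned accession, for 6700 of the 7125 probes that carry one. The array files name no genome build, and coordinates are left out. The named genes were all members, from each pathway list up to 4 genes past the threshold, or, where none passed, the 2 of lowest unadjusted p, and the 2 nearest profiles per member. The members and lists were chosen with earlier results of these data known. Alternatives covered background correction, centring, dye term, brightness filter, outlier spots, series table, slide, probe averaging and each array left out.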

Additional observations from a re-analysis of the deposited data

Results flagged for a closer look

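A single array stood apart from the remaining ones in 4 of the 44 sets of values checked; about 2.2 would be so by chance. The third PPARG probe had a log2 ratio of -0.65 on array 3 and 0.01 to 0.06 on the others. The untreated level of the brighter PRKAB1 probe was 4.13 on array 2, on the log2 scale over the channel's 75th percentile, and 3.36 to 3.47 on the others. GYS1 had a ratio of -1.16 on array 1 and -0.15 to -0.02 on the others. The median ratio of the adiponectin receptors and adaptors was 0.38 on array 4 and 0.0058 to 0.07 on the others.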

How the results depend on the processing

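No member probe passed in any alternative, where the adjusted p over all alternatives and omissions was at least 0.465. Of 77 alternative values of member probes other than omissions, 73 kept their sign. Many of these values could not change, so the count says little about robustness. Dropping the dye term, changing the brightness filter or keeping outlier spots left the fitted change of every member probe with a value as it was. The series table holds the same ratios. With normexp and loess the brighter PRKAB1 probe stood at 0.0043, the second PPARG probe at -0.0029 and PPARGC1A at -0.021. With slide as a fixed term, which equals leaving out array 4, the first PPARG probe stood at -0.085. Of 36 omissions of an array, 29 kept their sign. Their ranges were -0.14 to 0.064 for the brighter PRKAB1 probe, -0.12 to 0.28, -0.12 to 0.29 and -0.30 to 0.038 for the PPARG probes and -0.090 to 0.13 for PPARGC1A. For list genes they were -0.022 to 0.58 for NCOA3, -0.26 to 0.057 for PRKAG1 and -0.65 to 0.0065 for PPP2R5A. Over all probes, 0 to 12 were called, the 12 without array 3 (smallest adjusted p = 0.0198), and none of the 12 was a member probe. The mitochondrial biogenesis median moved to -0.011 when dim probes were kept, and to 0.044 to 0.16 in the omissions. Those of the other lists were -0.20 to -0.06 for upstream AMPK regulators, -0.09 to 0.03 for AMPK substrates, -0.09 to 0.06 for PPAR partners, -0.14 to -0.04 for PPAR targets and -0.09 to 0.14 for adiponectin receptors and adaptors. With the median of bright probes as the scale, the range of the untreated level was 1.45 and 2.18 for the PRKAB1 probes, 1.34 for PRKAB2, 1.63 for PPARD, 1.26 for the first PPARG probe and 1.52 for PPARGC1A. That scale depends on how many spots are bright, which differed by dye. Each ratio sets the treated against the untreated RNA of 1 array, so the fit itself compares within arrays. PPARD got no value where a probe had to be bright on all arrays in both channels. Its signals, near background, limit its ratio.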

Other observations

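The beta subunits of AMPK are alternative partners in the same complex, so their ratios were set side by side after the values were seen and without a test. The log2 ratio of PRKAB2 minus that of the brighter PRKAB1 probe was -0.13, 0.41, 0.79 and 0.74 on arrays 1 to 4. The difference depends on the PRKAB1 probe. On array 1 the dimmer PRKAB1 probe stood at -0.22, below PRKAB2 at 0.17. Further PPAR target genes were likewise picked after their values were seen. HADHA, of the mitochondrial trifunctional protein, stood at -0.38, ACADM at 0.13 and ACSL1, which activates fatty acids, at -0.64, with -1.81 on array 1. These are values of the brightest probe. All tested probes ran from -0.39 to 0.03 for HADHA, from -0.03 to 0.13 for ACADM and from -0.64 to -0.43 for ACSL1. PDK4, a PPAR-responsive kinase that restrains glucose oxidation, had a fitted change of -0.14. It stood at 1.54, -0.31, -1.40 and -0.38 on arrays 1 to 4, and its tested probes had fitted changes from -0.39 to 0.0035. None of these passed over all probes (limma adjusted p of 0.856 for HADHA and ACSL1, 0.907 for ACADM and 0.971 for PDK4).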
